A study of Gallus gallus with 31 samples.

Results

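Male chickens of lines with high growth (HG) and low growth (LG) were compared at post-hatch week 3 in their anterior pituitaries. The comparison takes the 4 arrays labelled HG and the 4 labelled LG at that age, 8 of the 31 arrays analysed here, with 1 bird per array. The lines were selected in opposite directions on 8-week body weight from meat-type stock at INRA, and all birds had free access to feed and water. The other 23 arrays are those of both lines at weeks 1, 5 and 7, which share the estimate of the spread. Each array set the amplified RNA of its bird, labelled with Cy3, against a Cy5 pool made from the study's samples, so a spot's value is a log2 ratio of the bird to that pool. Through week 3 the lines were raised apart from each other, so at this age line and rearing group cannot be told apart. Whole glands were used, so fewer cells of a type and less RNA per cell cannot be told apart either.

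The anterior pituitary makes growth hormone, prolactin, the POMC peptides and the glycoprotein hormones TSH, LH and FSH. Each glycoprotein hormone pairs a shared alpha subunit (CGA) with a beta subunit of its own (TSHB, LHB or FSHB). The beta subunit gives the hormone its specificity. TSH drives the thyroid, whose hormones are needed for growth in birds, while LH and FSH act on the gonads.

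The beta subunits TSHB, LHB and FSHB, the synthesis enzyme HPGDS and the secreted glycoprotein NELL2 read above LG in HG birds at week 3 by 1.22 to 2.12 on the log2 scale. The copine CPNE1, the polyadenylation factor WDR33 and 2 class I histocompatibility spots read below LG in HG birds. None of these differences passed an adjusted p of 0.05. Of 16903 spots tested with limma, 0 passed after Benjamini-Hochberg adjustment (percent called 0), and the smallest adjusted p was 0.101. At an unadjusted p under 0.05 there were 699 spots, or 4.14%, of which 350 (2.07%) read higher in HG and 349 (2.06%) lower. Adding a 1.6-fold difference left 119 spots (0.704%) higher in HG and 142 (0.84%) lower. The median difference over all spots was 0.00, and its quartiles were -0.14 and 0.14. The median standard error of a difference was 0.22.

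The replicate numbers were taken to pair the arrays of the lines, from correlations between same-numbered arrays. The labels do not say that birds were paired. With that number as a block the adjusted count was again 0, with a smallest adjusted p of 0.0808 and 948 spots (5.61%) at an unadjusted p under 0.05. Differences, standard errors and p-values of single genes come from the fit without that block, unless another setting is named. At spots lacking a bird the block also moved the difference, to 1.42 for LHB and 1.23 for FSHB (limma adjusted p = 0.163 and 0.817). Calls appeared under some other settings. NELL2 and HSD17B12, an enzyme of fatty acid elongation, passed in the authors' own deposited ratios (2 spots), and 11 spots passed when the replicate number was a block on those ratios. TSHB, CGA, DTX3, WDR33 and the endothelial sialomucin PODXL were among those 11, with limma adjusted p of 0.0469 each. There CGA rested on 2 HG and 3 LG birds and WDR33 on 3 HG and 4 LG birds. The smallest p of all belonged to an unnamed spot, 25.3.2, chosen here after its values were seen, at 1.07, 1.12, 0.63 and 1.22 in HG and -1.04, 0.05 and -0.45 in LG replicates 1, 2 and 4.

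On the 11045 spots seen on all 8 arrays, all 4 HG birds lay above all 4 LG birds at 187 (1.69%) and below them at 123 (1.11%), 310 (2.81%) in all. That total is close to the share that random orders of 4 and 4 independent birds would give. Named genes among them with an unadjusted p under 0.01 numbered 25 with HG above and 15 with LG above. The 12 with the largest difference in each direction are described below. They were taken because their lines did not overlap, so that separation is a description of them. Among these 24 genes, 18 spots stand in the study's own list of differing genes, which was drawn up from these same arrays.

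**Figure D1:**
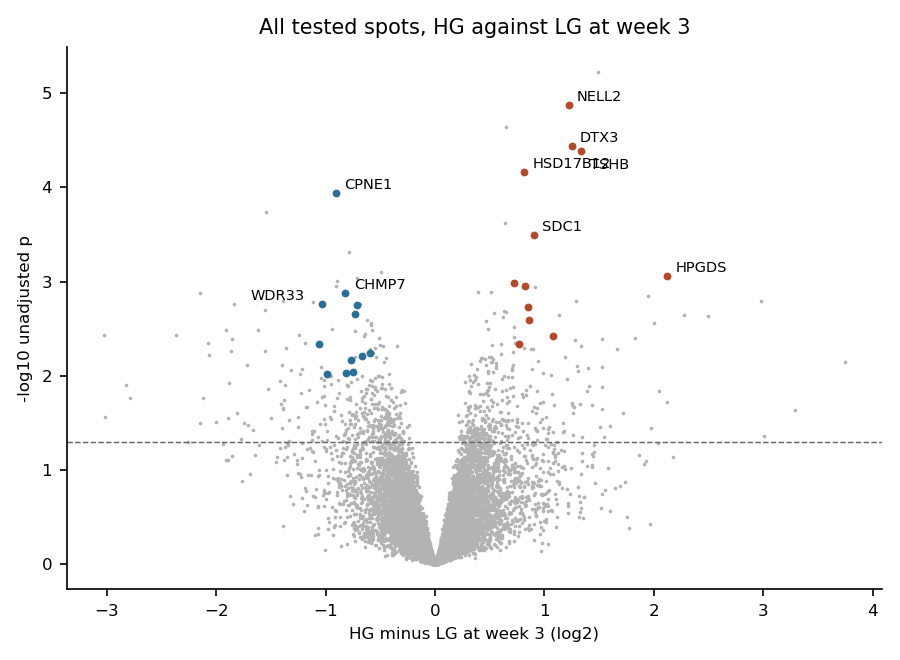
Each point is 1 of the 16903 tested spots, with the HG minus LG difference at week 3 (log2) on the x axis and -log10 of the unadjusted limma p on the y axis. Coloured points are the 24 leading named genes, red with HG above LG and blue with LG above HG, and the dashed line is an unadjusted p of 0.05. NELL2 at 1.22, DTX3 at 1.25 and TSHB at 1.34 stand highest among the coloured points, and HPGDS at 2.12 lies farthest to the right of them.

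TSHB showed the clearest separation of the hormone genes. HG replicates 1 to 4 read 0.05, -0.26, 0.34 and 0.27, a mean of 0.10 ± 0.27 (SD, n = 4), and LG replicates 1 to 4 read -1.25, -1.65, -1.16 and -0.87, a mean of -1.23 ± 0.32 (SD, n = 4). The lowest HG bird was well above the highest LG bird. The difference was 1.34 ± 0.27 (SE), or 2.52-fold (limma, adjusted p = 0.138, unadjusted p = 4.09e-05). Within replicate numbers 1, 2 and 4 the same difference was 1.30, 1.40 and 1.14, and the pair of number 3 differed slightly more. TSHB differed by 0.39, 1.03 and 0.71 at weeks 1, 5 and 7.

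LHB read 0.20, -0.16, 0.40 and 0.51 in the HG birds and -1.87, -0.45 and -0.83 in LG replicates 2 to 4, the spot of LG replicate 1 being flagged. No measured HG bird fell within the LG range. The difference was 1.29 ± 0.36 (SE, 2.44-fold, limma adjusted p = 0.931, unadjusted p = 0.00163), and LHB was 1.31 and 1.46 higher in HG at weeks 5 and 7 against 0.39 at week 1. FSHB differed by a like amount, 1.30 ± 0.46 (SE, unadjusted p = 0.00892), with a wide spread in both lines. Its HG birds 1, 3 and 4 read -0.50, 0.88 and -0.01 and its LG birds -1.46, -1.95, -0.17 and -1.16, so LG replicate 3 lay within the HG range. The FSHB spot was at 1.5 times background in its faintest week 3 bird and at 32.0 in its brightest.

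CGA, the alpha subunit that all 3 hormones share, differed by 0.92 ± 0.41 (SE, 1.89-fold, unadjusted p = 0.0379, limma adjusted p = 0.999). HG birds read -0.92, -0.89, 0.34 and 0.37 and LG birds -1.08, -2.38, -0.45 and -0.87. The lines overlapped, since HG replicates 1 and 2 sat among the LG birds, but within each replicate number the HG bird was the higher, by 0.16, 1.49, 0.79 and 1.23. Without LG replicate 2 the difference was 0.52. At weeks 1, 5 and 7 CGA differed by 0.14, -0.04 and -0.17. The test of week 3 against the mean of those ages gave 0.94 for CGA with an unadjusted p of 0.0749 and an adjusted p of 0.999.

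Growth hormone spots disagreed with each other. The GH spot 7.1.6, at 25.4 times background or more, read -0.85, -0.78 and -1.04 in HG replicates 1, 3 and 4 and -2.46, -1.75 and -0.80 in LG replicates 1 to 3, a difference of 0.78 ± 0.50 (SE, unadjusted p = 0.135). That value rests on 3 birds a line, and with flagged spots kept it was 0.36. Without LG replicate 1 it was 0.39 and without LG replicate 3 it was 1.22. The spot 43.6.11, also named GH, differed by -0.15 ± 0.26 (unadjusted p = 0.57). The third spot, which the study names GH1 and the platform table LOC420294, differed by -0.66 ± 0.38 (unadjusted p = 0.0942). The 3 spots thus point in both directions, none past its error at an unadjusted p of 0.05.

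Prolactin (PRL) read -0.22, -1.18 and -0.03 in HG replicates 1, 2 and 4 and -1.41, -0.66, -0.12 and -0.97 in the LG birds, a difference of 0.31 ± 0.33 (SE, unadjusted p = 0.359). HG replicate 3 was flagged at this bright spot, and with flagged spots kept the difference was 0.47. Without single birds it lay between 0.09 and 0.66. POMC, the precursor of ACTH, differed by -0.20 ± 0.18 and -0.08 ± 0.18 at its spots. Neither POMC spot nor PRL differed beyond the spread between birds. Over the 10 hormone spots, 6 were positive, and the median was 0.55 against 0.00 over all spots. An unadjusted p of 0.05 was passed by 4 in favour of HG and 0 in favour of LG (40% against 4.14% of all spots). In the faintest bird TSHB was at 8.51 and CGA at 39.2 times background, and PRL was brighter still. FSHB and the POMC spots were dim in their faintest birds. Of the 10 hormone spots, 5 lacked at least 1 bird.

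**Figure D2:**
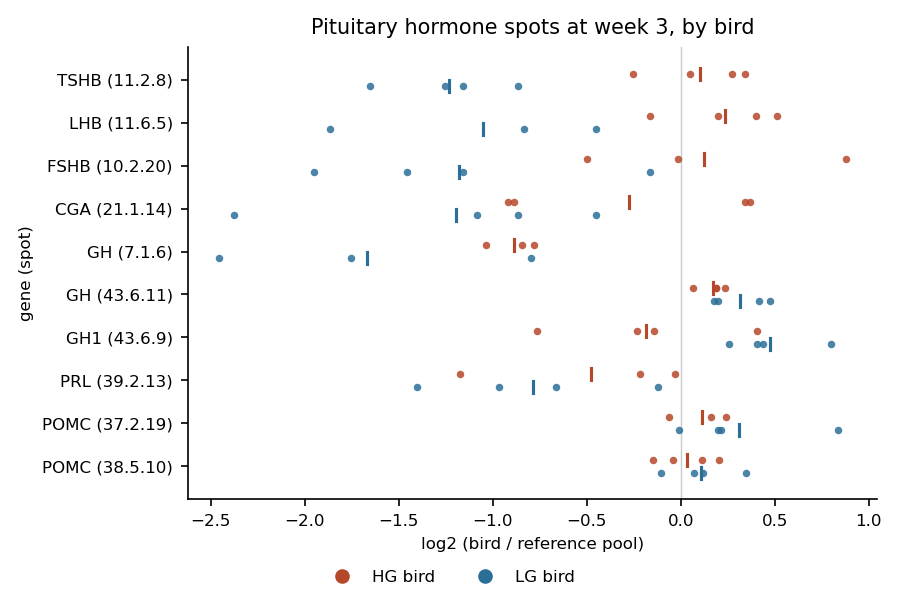
Each row is 1 hormone spot and each point 1 week 3 bird, as the log2 ratio to the reference pool, with HG in red, LG in blue and a vertical tick at the mean of each line. TSHB keeps the lines apart, LHB does so over its 7 measured birds, FSHB and CGA overlap in part, and the GH, GH1, PRL and POMC rows overlap or run in both directions.

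NELL2, a secreted glycoprotein with EGF-like repeats, had the smallest p of the named genes. Its HG birds read 0.58, 0.35, 0.25 and 0.70 and its LG birds -0.77, -0.95, -0.56 and -0.72, means of 0.47 ± 0.21 and -0.75 ± 0.16 (SD, n = 4 each). Birds of a line lay close together and the gap between lines was wider than either range. The difference was 1.22 ± 0.23 (SE, 2.33-fold, limma adjusted p = 0.113). A second spot of the gene, 38.2.12, gave 1.28 over 3 HG and 2 LG birds, while the third, 27.17.13, gave -0.03 with LG replicates spread from -1.40 to 2.76. Of these, only 27.17.12 was read on all 8 arrays.

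DTX3, a ubiquitin ligase of the Deltex family that acts on Notch receptors in flies, read 0.75, 0.65, 0.34 and 0.64 in HG and -0.58, -0.72, -0.43 and -0.88 in LG. The difference was 1.25 ± 0.25 (SE, 2.38-fold, limma adjusted p = 0.138), and its pair differences ran from 0.77 to 1.53. HSD17B12, a ketoacyl-CoA reductase that lengthens fatty acids, read 0.12, 0.30, 0.44 and 0.19 in HG and -0.71, -0.83, -0.23 and -0.45 in LG. At both genes every HG bird was above the pool and every LG bird below it. For HSD17B12 the difference was 0.82 ± 0.17 (SE, 1.76-fold, limma adjusted p = 0.193).

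HPGDS, which makes prostaglandin D2, had the largest difference of the leading genes. Its HG birds read 0.59, 0.68, 0.83 and -0.03 and its LG birds -1.36, -1.77, -1.38 and -1.91. The gap between lines exceeded the whole range of either, at 2.12 ± 0.57 (SE, 4.35-fold, limma adjusted p = 0.931, unadjusted p = 0.000884). The same spot differed by 1.10, 2.43 and 2.54 at weeks 1, 5 and 7.

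At the cell surface and in the matrix, the heparan sulfate proteoglycan SDC1 (syndecan) read -0.02, 0.10, 0.45 and -0.07 in HG and -0.42, -1.06, -0.80 and -0.87 in LG, a difference of 0.90 ± 0.22 (SE, limma adjusted p = 0.548). MXRA7, a matrix-remodelling associated gene, was read at 3 spots. The first, 31.11.9, differed by 0.72 ± 0.20 (SE, unadjusted p = 0.00103) and the second, 37.2.5, by 0.91 ± 0.25 (unadjusted p = 0.00115), with no overlap of the lines at either. The third MXRA7 spot, read in 3 HG and 2 LG birds near background, gave 0.17.

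HSPA5 (BiP), the main chaperone of the endoplasmic reticulum, read 0.34, 0.33, 0.63 and 0.34 in HG and -0.29, -0.79, -0.21 and -0.34 in LG. Each HG bird was above the pool and each LG bird below it, with a difference of 0.82 ± 0.22 (SE, 1.76-fold, limma adjusted p = 0.931). The spot was bright, at 22.7 times background or more. Another HSPA5 spot, 22.3.3, with 2 HG and 4 LG birds, gave 0.30 (unadjusted p = 0.169). TAT, a tyrosine aminotransferase that glucocorticoids induce in liver, lay between 0.03 and 0.34 in HG birds and between -1.04 and -0.35 in LG birds, a difference of 0.85 ± 0.24 (SE). Its second spot gave 0.35 over 4 HG and 2 LG birds.

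The remaining leading genes with HG above LG were dimmer. GSKIP, which binds the kinase GSK3B, differed by 0.86 ± 0.26, SLC12A9, of the cation-chloride cotransporter family, by 0.76 ± 0.25, and the myelin glycoprotein MOG by 1.08 ± 0.34 (SE each). MOG rested in part on HG replicate 2 at 1.74, with its other HG birds at 0.01, 0.09 and 0.19 and the LG birds from -1.04 to -0.14, and without that replicate the difference was 0.67. The faintest bird of these 3 was at 1.89 to 2.04 times background.

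**Figure D3:**
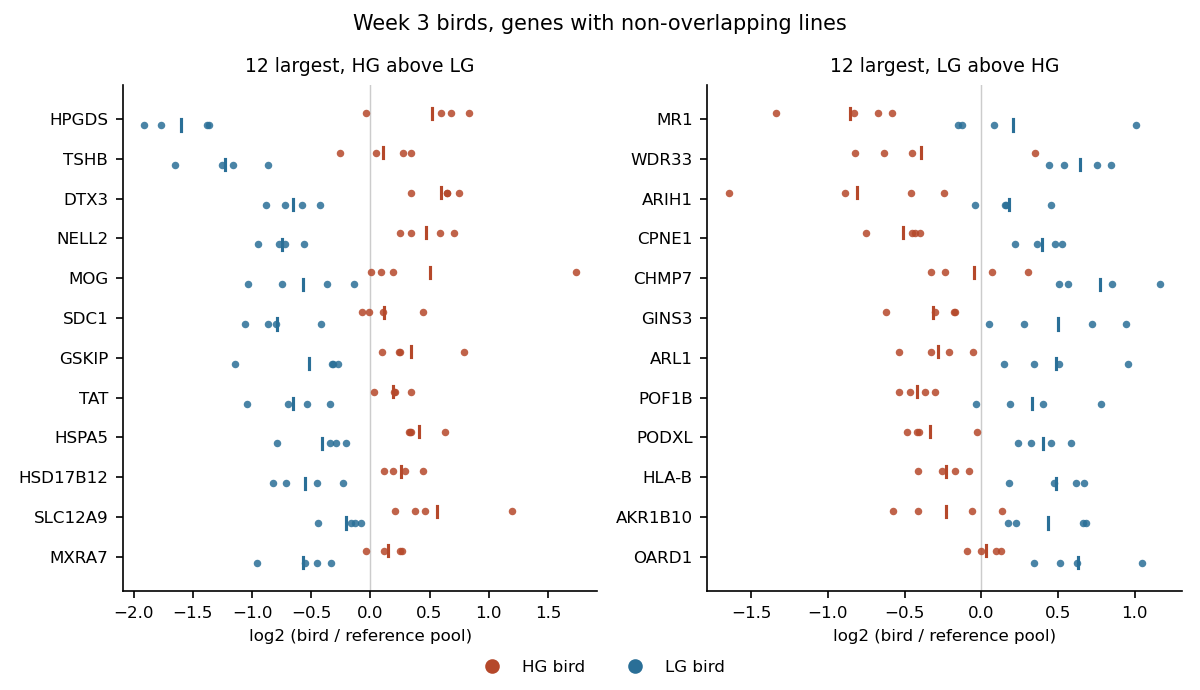
Each row is 1 of the 24 leading named genes, with HG above LG on the left and LG above HG on the right, and each point is 1 week 3 bird as the log2 ratio to the reference pool, HG in red and LG in blue, with a tick at the mean of each line. HPGDS shows the widest gap, TSHB, DTX3 and NELL2 keep both lines in tight groups, and 1 HG bird of MOG at 1.74 stands far from the other 3.

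CPNE1 led the genes with LG above HG. Copines bind phospholipids when calcium rises. HG birds read -0.40, -0.45, -0.43 and -0.75 and LG birds 0.48, 0.22, 0.53 and 0.37, so every HG bird was below the pool and every LG bird above it. The difference was -0.91 ± 0.20 (SE, 1.88-fold, limma adjusted p = 0.281, unadjusted p = 0.000116), and within replicate numbers it was -0.88, -0.68, -0.96 and -1.12. At weeks 1, 5 and 7 it was -0.40, -1.05 and -0.66.

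Membrane and Golgi genes followed. CHMP7, of the ESCRT-III membrane remodelling machinery, differed by -0.82 ± 0.23 (SE), with HG birds from -0.33 to 0.31 and LG birds from 0.50 to 1.17, although its other spot, 23.14.9, gave 0.17. PODXL, a sialomucin of endothelium, read -0.48, -0.03, -0.40 and -0.42 in HG and 0.24, 0.32, 0.58 and 0.45 in LG, a difference of -0.73 ± 0.22 (SE, limma adjusted p = 0.958). Its other spots, at -0.33, -0.21 and -0.19, had the same sign and smaller size. ARL1, a small GTPase of the trans-Golgi, differed by -0.77 ± 0.26 at its leading spot and by -0.84 and -0.10 at the others.

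Among genes of RNA, DNA and protein turnover, WDR33, a subunit of the machinery that adds poly(A) tails, read -0.82, 0.35, -0.63 and -0.45 in HG and 0.44, 0.54, 0.75 and 0.85 in LG (-1.04 ± 0.30, SE). HG replicate 2 came within reach of the LG birds, and other WDR33 spots gave 0.34 (named RGS5 by the platform table) and 0.09. ARIH1, a ubiquitin ligase, differed by -0.99 ± 0.35 at spot 1.10.10 and by -0.34 and -0.17 at its others. OARD1, an ADP-ribose deacylase, differed by -0.60 ± 0.20 and, at its second spot, by -0.43 with the lines again not overlapping. In the faintest bird the leading spots of OARD1, WDR33 and CHMP7 were dim, at 1.38, 1.80 and 1.73 times background. In the brightest bird they were at 72.6, 9.23 and 4.30. With the spots of a gene averaged, WDR33 was -0.22 and AKR1B10 -0.20. GINS3, of the replicative helicase complex, differed by -0.82 ± 0.29 at a spot read at 1.29 times background in its faintest bird and 26.2 in its brightest. At its other spot GINS3 differed by 0.06. POF1B, an actin-binding protein, differed by -0.75 ± 0.27.

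The aldo-keto reductase AKR1B10 was printed at 4 tested spots that fell into pairs. At 5.17.9 (PRKAB1 in the platform table) HG birds read 0.13, -0.06, -0.41 and -0.57 and LG birds 0.23, 0.18, 0.68 and 0.66, and at 32.2.5 HG birds read 0.12, 0.05, -0.49 and -0.98 and LG birds 0.63, 0.18, 0.40 and 0.42. At both spots HG replicates 3 and 4 were the lowest birds, and the lines differ by -0.66 ± 0.22 and -0.73 ± 0.25 (SE). At 8.10.8 (AKR1B1 in the platform table) and 5.17.10 the differences were 0.31 and 0.28. Copies of this gene family are alike in sequence. Whether signal at any of these spots came from another member was not tested.

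Class I histocompatibility spots were mostly lower in HG. These molecules show peptides to cytotoxic T cells. The chicken genes BF1 and BF2 are close copies, so their spots may not be separable, which was not tested. Of 38 spots of the class I list tested, 11 were positive (28.9% against 50.4% of all spots), 7 passed an unadjusted p of 0.05 with LG higher and 1 with HG higher (21.1% in all against 4.14%), and the median difference was -0.16 against 0.00 over all spots. The study chose several of these names on these arrays, so the count is not independent evidence of a direction. Bird means over the list spanned -0.33 to 0.09 in HG and -0.22 to 0.29 in LG, so the lines overlapped. Spot 41.4.15 (HLA-B in the study's list, BF1 in the platform table) read -0.17, -0.41, -0.08 and -0.25 in HG and 0.62, 0.48, 0.18 and 0.67 in LG, a difference of -0.72 ± 0.21 (SE, limma adjusted p = 0.931). Spot 8.17.7 (MR1 in the list, BF1 in the platform table) read -0.83, -1.34, -0.67 and -0.58 in HG and -0.15, 0.09, -0.12 and 1.01 in LG. It differed by -1.06 ± 0.34 (SE) at week 3, by 0.76 at week 1 and by -1.30 and -0.80 at weeks 5 and 7.

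The light chain B2M read -0.77 ± 0.27 lower in HG over 3 HG and 2 LG birds, while the peptide transporter TAP1 read 0.71 ± 0.27 higher, with LG replicate 4, at 0.41, above every HG bird, and it was 0.43 without LG replicate 1. Class II spots had a median of -0.12 with 0 of 16 past an unadjusted p of 0.05, beside 4.14% of all spots. Markers of leukocytes were measured beside them. For T cells and natural killer cells, 0 of 6 spots passed, and bird means over the list spanned -0.13 to 0.35 in HG and -0.70 to 0.89 in LG. For macrophages and granulocytes 0 of 20 passed, with means of -0.05 to 0.02 in HG birds and -0.12 to 0.17 in LG birds. In lists this short a count of 0 is close to the 4.14% of all spots, so it does not show the lines to be alike. Only 2 B cell spots were tested, BTK at 0.01 and IGJ (JCHAIN in the platform table) at 0.17. IGJ had LG replicate 4 at 1.58, and without single birds its difference lay between -0.07 and 0.71. The part of these cells in the class I values was not tested.

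Interferon-response spots were split. Of 38, 22 were positive, and the median was 0.08. An unadjusted p of 0.05 was passed by 2 with HG higher and 0 with LG higher (5.26% against 4.14% of all spots). OAS3 (OASL in the platform table), an antiviral synthetase, read -0.13, 1.03, 0.97 and 0.88 in HG and -1.36, -0.93 and 0.84 in LG replicates 2 to 4. Its difference was 1.17 ± 0.51 (SE) at week 3 and -2.09 at week 5, and at week 3 it was 0.73 without LG replicate 2 and 1.83 without LG replicate 4. The spots named DHRS3, a retinal reductase, and GPM6B, a membrane glycoprotein, shared that layout: at each, LG replicates 2 and 3 were far below the rest, at -1.27 and -0.85 and at -1.48 and -1.07, and the difference was about 1 at week 3 (1.07 and 1.09) and -2.08 and -1.71 at week 5. Neither gene belongs to the interferon list, and how many other spots have this layout was not counted.

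Lists of lipid and glucose enzymes had medians near 0. Among 62 spots of cholesterol and fatty acid synthesis, 5 passed an unadjusted p of 0.05 with HG higher and 1 with LG higher. Of the 45 on all 8 arrays, 5 kept all HG birds above all LG birds and 1 kept them below. In the glucose list 4 of 41 such spots had HG above and 0 had LG above. The shares of all spots on 8 arrays were 1.69% and 1.11%. FASN, the fatty acid synthase, kept all HG birds above all LG birds like HSD17B12, at 0.49 ± 0.17. Its HG birds ran from 0.07 to 0.26 and its LG birds from -0.57 to -0.11. The sterol oxidase MSMO1 was at 0.37 ± 0.15 with the lines overlapping. LCAT, which esterifies cholesterol in plasma, ran the other way at -0.71 ± 0.26. The list's median was 0.03. In glycolysis ALDOC read 0.47 ± 0.14 (SE, unadjusted p = 0.00265) higher and LDHA -0.59 ± 0.18 lower in HG, with 39 of 67 spots positive and a median of 0.05. The share of spots past that p was 9.68% in the lipid list and 4.48% in the glucose list, against 4.14% of all spots.

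Genes of thyroid hormone supply and action held DIO2, the deiodinase that makes T3 inside cells. DIO2 read 0.27, -0.18, 0.14 and 0.61 in HG and -0.67, -0.55, -0.38 and -0.43 in LG. The lines did not overlap, and the difference was 0.72 ± 0.22 (SE, 1.64-fold, limma adjusted p = 0.999, unadjusted p = 0.00302). At weeks 1, 5 and 7 it was 0.38, -0.36 and -0.03, and week 3 against the mean of the other ages gave 0.72 with an unadjusted p of 0.00896 and an adjusted p of 0.999. The amino acid and thyroid hormone carrier SLC7A5, the coactivator NCOA1 and the lipogenic THRSP were 0.66 ± 0.26, 0.50 ± 0.20 and 0.48 ± 0.18 (SE) higher in HG. For THRSP the lines overlapped, and without LG replicate 1 the difference was 0.30. Over the 56 spots of this list 25 were positive, and the median was -0.06. An unadjusted p of 0.05 was passed by 4 with HG higher and 1 with LG higher (8.93% in all against 4.14% of all spots).

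In the endoplasmic reticulum folding list 43 of 60 spots were positive (71.7% against 50.4% of all spots), with a median of 0.09. Besides HSPA5, ERP44, which retains secretory proteins, read 0.38 ± 0.18 higher in HG (0.24 without LG replicate 1), while P4HB gave -1.56 ± 0.43 on 2 HG and 3 LG birds near background. Unadjusted p passed at 2 spots with HG higher and 1 with LG higher (5% in all against 4.14% of all spots). Ribosomal protein spots were positive at 49 of 68 (72.1%), with 2 past an unadjusted p of 0.05 (2.94%). Oxidative phosphorylation spots were positive at 40 of 63, with 0 past it. The medians of these lists, 0.04 to 0.09, were below the standard error of most single spots, which is not the error of a list median. Bird means over the folding list were 0.03 to 0.12 in HG and -0.12 to 0.06 in LG. For ribosomal proteins they were 0.00 to 0.15 in HG and -0.04 to 0.15 in LG. For oxidative phosphorylation they were -0.01 to 0.05 in HG and -0.07 to 0.08 in LG, so the lines overlapped in each list.

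In the receptor list AVPR1A (AVPR1B in the platform table), a receptor for the avian vasopressin peptide, differed by -0.81 ± 0.30 (SE, unadjusted p = 0.0125), and all 3 receptor spots past an unadjusted p of 0.05, of 23 tested and beside 4.14% of all spots, read lower in HG. AVPR1A kept its lines apart, with HG birds from -0.55 to 0.17 and LG birds from 0.27 to 0.80. In the granule list SYP, a vesicle membrane protein, differed by -0.80 ± 0.31, while CHGB, a granin of secretory granules, read -0.18, -0.04, 0.17 and -0.10 in HG and -0.37, -1.12, -0.52 and -0.92 in LG. The CHGB lines did not overlap, yet its difference of 0.70 had an unadjusted p of 0.0708. Of the transcription factors, HES6 alone passed an unadjusted p of 0.05, at 0.66 ± 0.26, among 19 spots (5.26%).

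Vessel and matrix genes went both ways. FLT1, a receptor for vascular endothelial growth factor (VEGFRKDRL in the platform table), read 0.05, -0.03, 0.30 and 0.31 in HG and -0.13, -0.74, -0.37 and -0.38 in LG, a difference of 0.56 ± 0.20 (SE). The junctional cadherin CDH5 was 0.70 ± 0.25 higher in HG and CAV2, of the caveolar coat, -0.52 ± 0.19 lower, beside PODXL above. Over 56 endothelial spots 4 passed an unadjusted p of 0.05 with HG higher and 2 with LG higher (10.7% in all against 4.14% of all spots). Of 85 matrix spots, 6 passed with HG higher and 4 with LG higher (11.8% in all). The latter held TNC (-1.40 ± 0.47 on 2 HG and 3 LG birds) and PRELP (-1.01 ± 0.35, likewise on 2 and 3 birds). Semaphorin and guidance genes had a median of -0.01, with SEMA3C at 0.56 ± 0.25 and PLXND1, a plexin, at 0.35 ± 0.16.

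Among stress-responsive genes DDIT4, an inhibitor of mTOR signaling that glucocorticoids induce, read -0.35, -0.44, -0.48 and -0.31 in HG and 0.00, 0.27, 0.32 and 0.01 in LG. Its lines did not overlap and it differed by -0.54 ± 0.18 (SE, unadjusted p = 0.00505), opposite in sign to TAT. RASD1, a Ras-like protein that glucocorticoids also induce, differed by -1.19 ± 0.38 over 3 birds a line. The mitochondrial chaperone HSPD1 differed by -1.32 ± 0.46, with HG replicate 2 inside the LG range. Clusterin (CLU) and complement factor D (CFD) read 0.61 ± 0.23 and 0.57 ± 0.23 higher in HG, and CFD differed by 0.42, 0.55 and 0.31 at weeks 1, 5 and 7. CFD and THRSP are also adipocyte markers. Of those, 3 of 20 spots (15% against 4.14% of all spots) passed an unadjusted p of 0.05 with HG higher and 0 with LG higher. Adipocyte bird means were 0.06 to 0.25 in HG and -0.06 to 0.11 in LG, while PLIN1, the lipid droplet coat protein, was at -0.43, and the part of fat cells in the lipid, THRSP and CFD values was not tested. Proliferation spots had a median of 0.07, with MCM4, of the replicative helicase, at -0.32 ± 0.13 and PCNA, the replication clamp, at 0.38 ± 0.17 (0.24 without HG replicate 1). In the insulin-like growth factor list 0 of 20 spots passed an unadjusted p of 0.05, beside 4.14% of all spots.

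**Figure D4:**
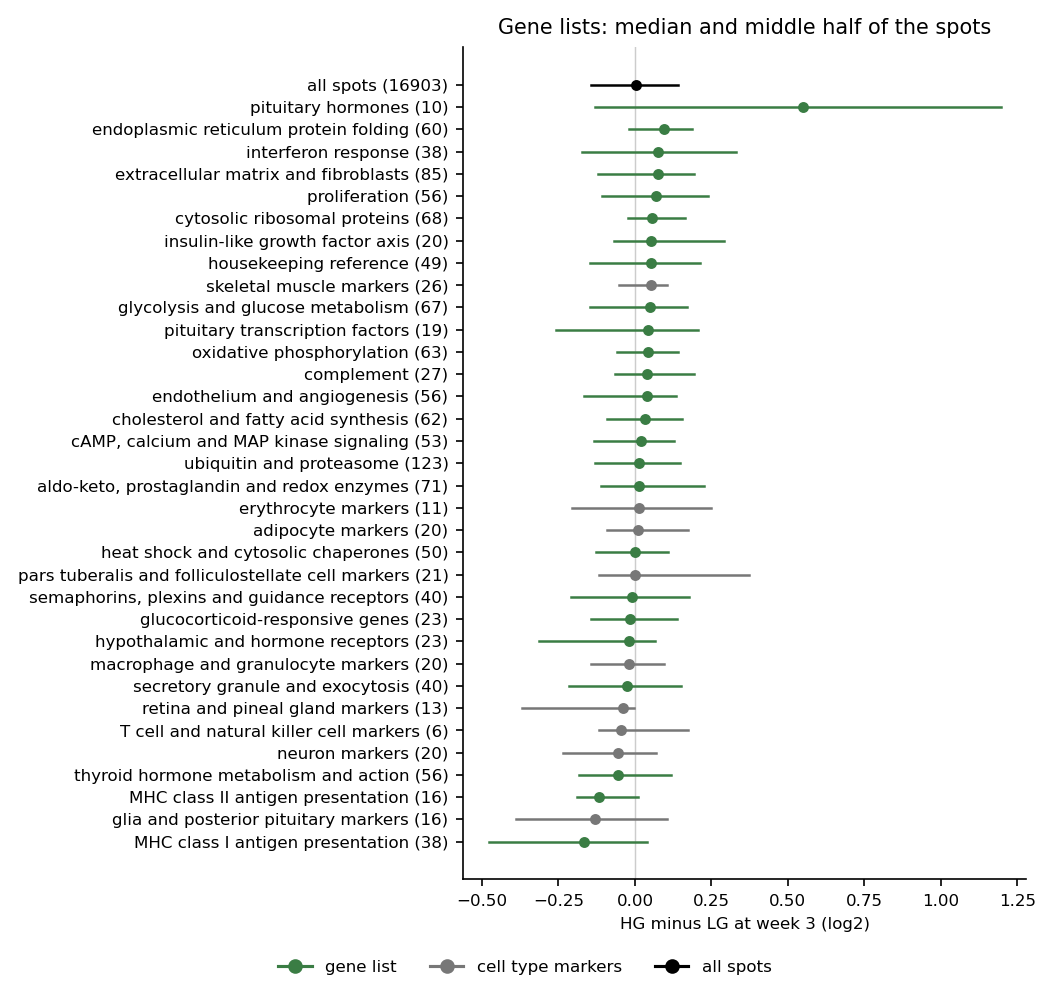
Each row is 1 gene list (green) or marker list (grey) with the number of spots tested in brackets, the point being the median HG minus LG difference at week 3 (log2) and the bar the range between the quartiles of its spots, and the top row in black is all spots. The hormone list has the highest median at 0.55 and the class I list the lowest at -0.16, against 0.00 for all spots. The B cell list, with 2 spots, is left out.

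Markers of other tissues, and of cell types of the pituitary itself, were measured as well. Glia and posterior pituitary spots had a median of -0.13 over 16, with 1 past an unadjusted p of 0.05 in each direction (12.5% in all). MOG, of which all 4 HG birds lay above the LG birds, is one of them. Neuron markers had a median of -0.06 over 20, with 2 past that p (10%), both lower in HG. Erythrocyte markers had a median of 0.01 over 11 and skeletal muscle markers of 0.05 over 26, with 0 spots of either past it. Retina and pineal spots were negative at 11 of 13, with 2 past it (15.4% against 4.14% of all spots), both lower in HG, and with bird means of -0.29 to -0.13 in HG and -0.14 to 0.15 in LG. Pars tuberalis and folliculostellate markers, a list that includes TSHB and DIO2, had a median near 0, with VIM, an intermediate filament gene, at -0.51 ± 0.16. The part of these tissues and cell types in the results above was not tested.

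The retrovirus spots of the study's list had large and uneven values. The spot named for the env precursor Pr57 (46.8.10) read -3.50, 0.59, -0.98 and -4.64 in HG and 0.61, 0.96, 0.28 and 1.70 in LG. HG replicate 2 lay inside the LG range, whereas HG replicates 1 and 4 were far below every LG bird. The difference was -3.02 ± 1.28 (SE, limma adjusted p = 0.999, unadjusted p = 0.0271), beside -0.88, -2.02 and -4.70 at weeks 1, 5 and 7. Over the alternatives the week 3 value ran from -3.92 to -1.08, the latter with dim readings left out. A second Pr57 spot was read in 2 HG and 1 LG birds and was not tested. Of 2 spots named for a Gag-env fusion of EAV-HP, 25.7.13 gave 0.80 ± 0.35 and 43.3.4 gave -0.47 ± 0.24.

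At 43.3.4 HG birds read -0.55, -0.91, 0.06 and -0.76 and LG birds -0.09, -0.22, 0.31 and -0.28. The same layout, with HG replicates 2 and 4 lowest and HG replicate 3 highest of their line, recurred at the serotonin receptor HTR1B (-0.68, -1.28, 0.00 and -0.87) and at the fatty acid binding protein FABP5 (-0.33, -0.81, -0.06 and -0.74). The calcium-binding CALB2 and the visual-cycle gene RPE65 had the same pair of birds lowest and replicate 3 highest as well. This layout was picked after the values were seen, and how often it occurs over all spots was not counted. These spots carry names of unrelated genes, and whether they share sequence was not tested.

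Differences at week 3 were set beside those at the other ages, which come from other birds. Of the 12 leading genes with HG above LG, 11, 11 and 12 had the same sign at weeks 1, 5 and 7, where 50.7%, 50.1% and 49.8% of all spots were positive. Their median differences at those ages were 0.30, 0.64 and 0.78, and 2, 9 and 9 passed an unadjusted p of 0.05 in the same direction. Of the 12 with LG above HG, 8, 12 and 12 had the same sign, with medians of -0.22, -0.76 and -0.67, and 1, 8 and 11 passed. The corresponding share of all spots was at most 2.99%. Week 1 thus showed the smaller differences of these genes, although most stand in a list that the study chose from all ages, so the agreement is a description. Week 1 had 7 arrays against 8 at each other age, and the header of 1 of its HG arrays names week 3.

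**Figure D5:**
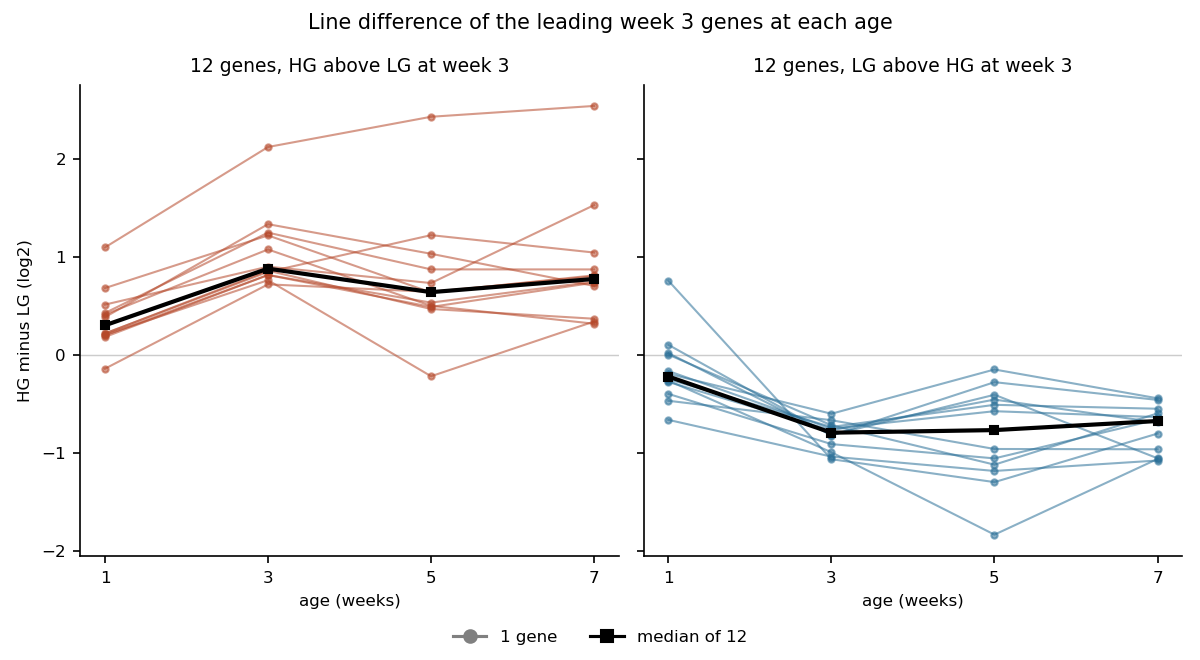
Each thin line is 1 of the 24 leading week 3 genes, with the HG minus LG difference (log2) on the y axis against age in weeks, and the black squares give the median of the 12 genes in each panel. The genes were chosen by their week 3 values. In both panels the week 1 medians, 0.30 and -0.22, lie nearest 0, and HPGDS is the top line of the left panel, at 1.10, 2.12, 2.43 and 2.54.

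Whether a week 3 difference is larger or smaller than that at the other ages was tested directly. Over 16767 spots 0 passed an adjusted p of 0.05 (limma, percent called 0), the smallest being 0.256, and 394 (2.35%) had an unadjusted p under 0.05. Among the 24 leading genes CHMP7 (-0.61, unadjusted p = 0.0293) and SLC12A9 (0.65, unadjusted p = 0.0312) had such a p. Among named genes on all 8 arrays, the smallest p with a more positive difference at week 3 belonged to TMEM41B, an endoplasmic reticulum scramblase (0.90, unadjusted p = 0.00291), followed by DHRS3, CHM, GPM6B and BRINP1. CAPRIN1, an RNA-binding protein, had the smallest with a more negative one (unadjusted p = 0.0024), followed by NKAIN1, DYSF, TNRC6B and PLSCR1. NKAIN1 differed by -0.76 at week 3 and by 2.81 at week 1. Without LG replicate 1, at 2.34, its week 3 difference was -0.12 and its contrast moved from -1.48 to -0.84. CAPRIN1 was -0.63 at week 3, with HG birds from 0.09 to 0.49 and LG birds from 0.76 to 1.14, and 0.28, 0.35 and 0.48 at the other ages. For DYSF, of muscle membrane repair, HG birds read -0.26, -0.18, -0.11 and -0.22 and LG birds 0.34, 0.20, 0.06 and 0.01, a difference of -0.35 ± 0.11 at week 3 against -0.07 to 0.11 elsewhere. Each of these genes had an adjusted p of 0.999 in this contrast.

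Depth was alike in the lines. HG arrays had 14832 to 18000 spots with a good flag (median 16602.5) and LG arrays 14786 to 17926 (median 16298), of 19200 printed. The median Cy3 signal over background was 3.29 to 5.63 in HG and 3.39 to 5.43 in LG. In both lines replicate 1 had the fewest usable spots and replicate 4 the most.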

How the data were processed

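Amplified pituitary RNA of single birds (Cy3) was hybridised against a pool of all samples (Cy5) on the Del-Mar 14K spotted cDNA array, with no dye swap. The deposited single-array files hold spot intensity values, made by the authors with Spotfinder and still including background. The deposited value table holds log2 ratios that the authors normalized in MIDAS (signal-to-noise check, block lowess, regularization of spread). Here intensities were background-corrected with normexp (offset 50), then loess was run array by array. Spots with a flag other than B or C, the flags taken as good, were left out. Among those left out were spots with the flag S. Their median Cy3 intensity was 1572489, against 270064.5 for flag C and 79441 for flag B. Testing needed a value on 16 or more arrays and on 2 or more of each week 3 group. The model was fitted in limma 3.58.1 (R 4.3.3) with a mean for each line and age over all 31 arrays, and was also tested on simulated data. P-values were adjusted by Benjamini-Hochberg over all tested spots. A difference is the HG mean less the LG mean in log2 units, with limma's standard error. The number of arrays limits the precision, and p-values measure the spread between birds of these samples.

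Deviations of same-numbered HG and LG birds from their group means correlated at 0.102, 0.232, 0.127 and 0.379 over 11045 spots, above 0.1 for every pair, so the replicate numbers were taken to pair the arrays. The numbers come from the sample titles. HG week 1 replicate 1 has a header that names a different week, so a fit without it was also made.

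Genes were named by a rule: any spot past adjusted p, the 12 named genes with the largest difference in each direction (unadjusted p under 0.01, on all 8 arrays, lines not overlapping), hormone and retrovirus spots, up to 4 genes of each list, and the 5 smallest p in each direction of the contrast of week 3 against the other ages. Spot names come from the study's list or else the platform table, which differ at 50 spots. Members and lists were chosen with earlier results of these data known. Values of 2 named spots are not reported here. The lists are those plotted by name, plus B cell and plasma cell markers.

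The alternatives tried were no background correction, scaling between arrays, median centring, print-tip loess, the deposited table with and without a replicate block, all positive spots, 2 other spot filters, the methods' two-way model, a trend and robust prior, array weights, a replicate block, averaging spots of a gene, unadjusted p, and leaving out single arrays. Added after seeing the data were replicate numbers 2 to 4 alone and a signal of at least 3 times background.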

Additional observations from a re-analysis of the deposited data

Results flagged for a closer look

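In 291 groups of 4 birds over the named spots, 15 held a bird whose gap to its nearest neighbour, over the range of the group, passed Dixon's 95% critical value, or 5.15%. Chance gives about 1 in 20.

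Among the leading genes, the HG bird of replicate 4 was at -0.75 for CPNE1 (nearest bird -0.45) and that of replicate 3 at 0.63 for HSPA5 (nearest 0.34). HG replicate 2 was at -0.026 for PODXL (nearest -0.40) and at 1.74 for MOG (nearest 0.19), and LG replicate 1 was at -1.14 for GSKIP (nearest -0.33). In these 5 genes the lines did not overlap with that bird included, which is part of the rule that chose them.

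HG replicate 2 was also apart for TPH1, the serotonin synthesis enzyme, at 0.40 (nearest -0.20). HG replicate 1 stood apart for OAS3 at -0.13 (nearest 0.88), for the oxidase gene CYBB at 0.56 (nearest 0.12) and for the cytokine receptor CSF3R at -0.64 (nearest -0.11). LG replicate 1 read 2.34 for NKAIN1 (nearest -0.03), and LG replicate 3 read 0.25 for CRMP1 (nearest -0.21).

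LG replicate 4 was the bird apart at 4 spots: RPE65 at -0.32 (nearest 0.27), the neurofilament gene NEFL at -0.19 (nearest 0.09), ARIH1 spot 48.3.8 at -0.43 (nearest 0.06) and the immunoglobulin joining chain gene IGJ at 1.58 (nearest -0.49).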

How the results depend on the processing

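The count of 0 spots at week 3 was 0 under print-tip loess, median centring, no background correction, all positive spots, either other spot filter, the unmoderated two-way model, a trend and robust prior, averaged spots, the 8 week 3 arrays alone and a replicate block. It was 3 with scaling between arrays (an unnamed spot, 25.3.2, then NELL2 and CDK2AP1), 2 with the deposited value table, 11 with the deposited value table and a replicate block, 4 with array weights (TSHB, NELL2, HSD17B12 and 25.3.2) and, in a setting added after seeing the data, 2 with the signal-to-noise filter (NELL2 and DTX3). The cause was not tested. By unadjusted p it was 699, or 261 with the 1.6-fold rule. Leaving out single week 3 birds gave 0 to 1, the 1 being spot 25.3.2 without LG replicate 2. The 699 spots by unadjusted p became 454 with only replicate numbers 2 to 4 and 384 with the signal-to-noise filter, both added, and 455 to 912 when single birds were left out, the 455 without LG replicate 1. With the replicate block they were 948, while the adjusted count was again 0.

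For week 3 against the other ages the count was 0, and 394 by unadjusted p, or 217 with the 1.6-fold rule. Leaving out single birds gave 0 to 1, again spot 25.3.2 without LG replicate 2. The 394 became 206 with the deposited table, 219 for spots on all 8 arrays, 258 with replicate numbers 2 to 4 and 124 with the signal-to-noise filter. The cause was not tested. Over 612 refitted values of the 24 leading genes, 0 had the other sign. These genes were chosen for lines that did not overlap, so leaving out a bird could not turn their sign. Over 4467 refitted values of all named spots, 41 had the other sign. Dim spots limit the precision, since several leading genes were below 2.0 times background in the faintest bird.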
